A study of Mus musculus with 12 samples.

Results

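The comparison set the 3 libraries of Pu.1-URE-/- mice against the 3 libraries of Mdmx-Tg mice, chosen by genotype label from the 12 libraries of the series. Each library held polyA RNA of sorted bone marrow cells, Lin-Sca-1+Kit+ and without Flk2, the marrow fraction with the blood stem cells and earliest progenitors, and each carries its own number in its label, read here as a mouse number. Pu.1-URE-/- mice lack both copies of the upstream regulatory element of Spi1 and carry no transgene. Mdmx-Tg mice keep the element and have an added Mdmx transgene; MDMX is the protein that Mdm4 encodes. The remaining 6 libraries, 3 Wild-type and 3 Mdmx-Tg/Pu.1-URE-/- (the double mutant, with the element lost and the transgene present), shared the model of the spread and served as reference levels. No treatment is given for any group, and the promoter that drives the transgene, the ages of the mice and the number of founder lines are not given in the sources used here.

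PU.1, the product of Spi1, is the transcription factor that directs cells toward the myeloid and B lymphoid lineages, and its level in stem cells is set in large part by the upstream element. Mice without that element are a known model of myeloid leukaemia. MDMX binds p53 and blocks its activity as a transcription factor, and works beside the ubiquitin ligase MDM2. A direct contrast of the single mutants therefore spans 2 lesions at once, and the Wild-type levels give the reference for each.

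The 6 libraries held 47231506 to 54956119 estimated reads, and 12824 to 13703 genes had at least 10 reads. Levels are reads scaled to 1e+06 per library (CPM) and adjusted by TMM factors. Of the genes of the gate, Kit stood at 277, 270.2 and 325 CPM in Mdmx-Tg against 214, 228 and 171 CPM in Pu.1-URE-/-. Ly6a (the gene of Sca-1) stood at 43.1, 85.2 and 65.4 and 43.8, 43.99 and 66.7 CPM, and neither was called. Flt3, the gene of Flk2, was low, at 5.82, 19.8 and 22.2 and 10.8, 39.2 and 51.9 CPM. Of 14 gate genes tested, Ly6g and Fcgr3 were higher in Pu.1-URE-/- and Cd34 and Slamf1 lower. Slamf1 lost its call without any of 10 of the 12 single libraries (edgeR adjusted p of up to 0.145), and the 4 calls were 2 without Mdmx-Tg 1, Mdmx-Tg 2, Pu.1-URE-/- 1 or Pu.1-URE-/- 3. Cd3e and Cd4 did not reach the low-count filter. Ly6g, a neutrophil surface gene, was read at 45.8, 3.19 and 18.7 CPM in Pu.1-URE-/- and had no read in Mdmx-Tg. Immunoglobulin genes took 4.16% to 11.9% of the reads of Mdmx-Tg and 0.611% to 3.31% of those of Pu.1-URE-/-, and mitochondrially encoded genes 2.52% to 3.33% and 1.47% to 1.84%. In Wild-type the immunoglobulin share ran from 0.473% to 33.2%. With the immunoglobulin genes left out of the fit, 1411 genes were called, 892 higher and 519 lower. They included 1298 of the 1318 called with all genes, and none of these 1298 reversed. That fit kept the reads of all other genes, so the part of other B lineage reads was not tested. The part of the mitochondrial share in the results was not tested. Y-linked genes were low in all 6 libraries, at 2.28 to 5.26 CPM. The reference groups were mixed: Wild-type 1 to 3 had 2.16, 222 and 2.24 CPM, and double mutant 1 to 3 had 205, 4.92 and 211 CPM. The labels give no sex, and the part of this difference in the double mutant minus Wild-type contrast was not tested. In a bulk sample, fewer cells of a type and less RNA per cell cannot be told apart.

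Most neutrophil granule genes were far higher in Pu.1-URE-/-. The stem cell genes that passed the test were all lower, the mitotic genes that passed were all higher, and 7 of the 8 interferon response genes that passed were lower. Genes with an adjusted p below 0.05 in edgeR's quasi-likelihood test are called here: 1318 of 15012 (8.78%), 891 higher in Pu.1-URE-/- (5.94%) and 427 lower (2.84%). The median log2 change was 1.94 over the genes called higher and -1.49 over those called lower, against -0.02 over all genes tested. Differences of at least 4-fold made up 434 of the 891 and 151 of the 427. At an unadjusted p under 0.05, 3959 genes passed, and the 2 groups did not overlap in 4736 genes (31.5%). They did not overlap in 1308 of the 1318 called genes, so a lack of overlap in a called gene adds little to its call.

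The spread behind these p-values is that of libraries sharing a genotype, pooled over all 12, and each call rests on 3 libraries against 3. The count fell to 430 without Pu.1-URE-/- 1 and to 380 without Pu.1-URE-/- 3, to 675 without Mdmx-Tg 1 and to 672 without Mdmx-Tg 2. DESeq2 called 3110 genes, 54.9% of them higher in Pu.1-URE-/-, against 67.6% of the edgeR calls. Pu.1-URE-/- 2 lay nearer to Mdmx-Tg than the other libraries of its genotype: it was the lowest of the 3 in 83.8% of the genes called higher (35.5% of all genes tested) and the highest in 67.0% of those called lower (37.3% of all).

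**Figure D1:**
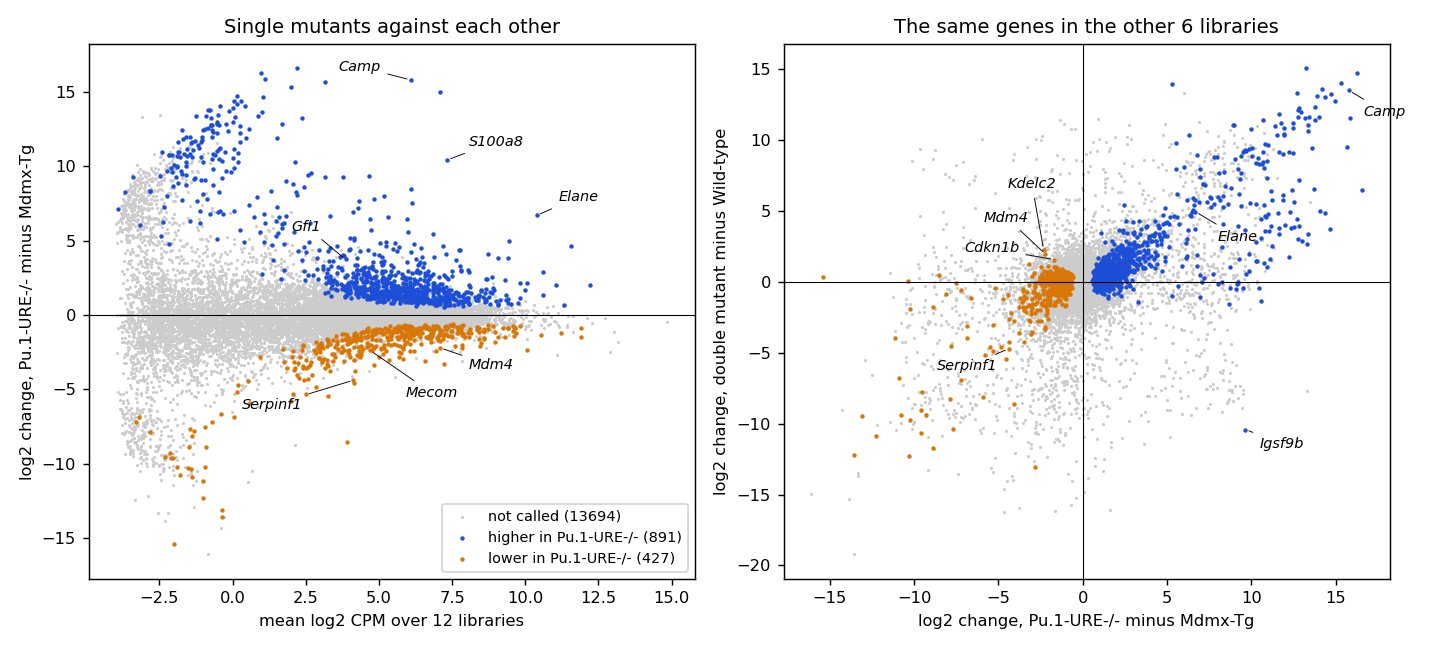
Left, log2 change of Pu.1-URE-/- minus Mdmx-Tg against the mean log2 CPM over 12 libraries, 1 point per gene tested. Right, the change of the double mutant minus Wild-type for the same genes, on the 6 libraries outside the comparison. Blue marks the 891 genes called higher in Pu.1-URE-/-, orange the 427 called lower and grey the others. Most blue points lie above 0 on the right, while Mdm4, Cdkn1b and Kdelc2 lie at the upper left.

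Wild-type mostly stood between the mutants. Its mean lay below Pu.1-URE-/- and above Mdmx-Tg in 594 of the 891 genes called higher (66.7%, against 20.9% of all genes tested), and above Pu.1-URE-/- and below Mdmx-Tg in 378 of the 427 called lower (88.5%, against 23.4%). The contrast chose these genes for a wide gap between the mutants, so the shares describe them and test nothing. Against Wild-type, edgeR called 707 genes for Pu.1-URE-/- (4.71%, with 3.84% higher and 0.866% lower) and 0 for Mdmx-Tg, where 1576 passed at an unadjusted p under 0.05. Of the 1318 genes, 764 were not called for Pu.1-URE-/- minus Wild-type. In 317 of the 1318, Mdmx-Tg lay farther from Wild-type than Pu.1-URE-/- did, against 6508 of all 15012 genes tested.

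The double mutant and Wild-type differ in the element and in the transgene together, and their 6 libraries are not among those compared. Of the 1318 genes, 1034 (78.5%) had the same sign there as in Pu.1-URE-/- minus Mdmx-Tg, against 57.4% of all genes tested. The share was 85.4% for the genes called higher and 63.9% for those called lower. In that contrast 502 genes were called (3.34%, with 2.47% higher and 0.873% lower); 287 of the 1318 were called the same way, and 4 the other way: Mdm4, Cdkn1b, Kdelc2 and Igsf9b.

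The targeted genes come first, as a check of the labels. Mdm4 (chromosome 1, 132959484 to 133030561, GRCm38, minus strand) stood at 535, 414 and 163 CPM in Mdmx-Tg 1 to 3 and at 93.9, 56.2 and 90.3 CPM in Pu.1-URE-/- 1 to 3. All 3 transgenic libraries lay above the others, Mdmx-Tg 3 by the least. The difference was a log2 change of -2.21 ± 0.47 (SE; edgeR adjusted p = 0.017), a 4.62-fold lower level in Pu.1-URE-/-. The call ended when Mdmx-Tg 1, Mdmx-Tg 2, Pu.1-URE-/- 1 or Pu.1-URE-/- 3 was left out, at adjusted p of up to 0.0661. The coding transcript Mdm4-201 held 54.9%, 62.5% and 60.1% of the gene's TPM (a transcript's share of a library, allowing for its length) in Mdmx-Tg, and 5.52%, 12.8% and 0% in Pu.1-URE-/-. Its estimated reads were 22274, 16389 and 6452 in Mdmx-Tg. By estimated reads its mean share in Mdmx-Tg was 76.2%, against 59.2% by TPM.

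Spi1 itself did not separate the mutants. It stood at 21.6, 13.5 and 3.69 CPM in Mdmx-Tg and at 8.73, 8.73 and 23.9 CPM in Pu.1-URE-/- (edgeR adjusted p = 0.976), and the ranges overlapped. The non-coding transcript Spi1-202 (chromosome 2, 91082408 to 91090310), which lies upstream of the main coding transcript, had 213, 321 and 105 estimated reads in Mdmx-Tg and none in Pu.1-URE-/- or the double mutant. Wild-type had 55, 53 and 65.5. In TPM it stood at 11.6, 13.9 and 4.28 in Mdmx-Tg. It made up 65.9% ± 21.3 of the gene's TPM there (SD, n = 3) and 38.9% of its estimated reads. The coding transcript Spi1-204, which starts close to it (91082390), had 98.6, 27.8 and 2.38 estimated reads in Mdmx-Tg and 9.68, 0 and 49.3 in Pu.1-URE-/-.

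Mdm2 and Trp53, the other named members of the pathway, were not called. Mdm2, a target and inhibitor of p53, stood at 50.3, 50.1 and 33.3 CPM in Mdmx-Tg against 77.3, 36.97 and 50.9 CPM in Pu.1-URE-/- (edgeR adjusted p = 0.523). Trp53, the gene of p53, stood at 252, 161 and 372.5 and 265, 319 and 292 CPM (edgeR adjusted p = 0.759).

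Cdkn1b, Kdelc2 and Igsf9b divided the 12 libraries by the transgene and not by the element. They are the genes, beside Mdm4, called in opposite directions in the comparison and in the double mutant minus Wild-type. That choice draws on all 12 libraries, so the division describes these genes and tests nothing. Cdkn1b (chromosome 6, 134920401 to 134925513) encodes p27, an inhibitor of cyclin-dependent kinases that holds cells in G1. It stood at 129, 119.7 and 79.8 CPM in Mdmx-Tg against 109, 52.6 and 144 CPM in the double mutant, and at 37.3, 37.8 and 27.9 CPM in Pu.1-URE-/- and 31.1, 31.6 and 39.8 CPM in Wild-type. The 6 transgenic libraries lay above the 6 others without overlap. The log2 change was -1.67 ± 0.34 for Pu.1-URE-/- minus Mdmx-Tg (edgeR adjusted p = 0.0138) and 1.58 for the double mutant minus Wild-type (edgeR adjusted p = 0.0295). The first call ended without Pu.1-URE-/- 1 or Pu.1-URE-/- 3, at adjusted p of up to 0.0661.

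Kdelc2 (chromosome 9, 53384025 to 53401867), which encodes an endoplasmic reticulum glucosyltransferase, stood at 60.2, 72.1 and 24.2 CPM in Mdmx-Tg against 10.8, 13.5 and 7.19 CPM in Pu.1-URE-/-. The double mutant had 52.9, 37.4 and 64.6 CPM and Wild-type 7.29, 17.3 and 7.22. Every transgenic library was above every other one. Its edgeR adjusted p was 0.0163, and up to 0.0779 without Mdmx-Tg 2, Pu.1-URE-/- 1 or Pu.1-URE-/- 3. Igsf9b (chromosome 9, 27299204 to 27357546), a gene of a synaptic adhesion molecule, had no read in any transgenic library. It stood at 1.64, 2.22 and 1.87 CPM in Pu.1-URE-/- and 2.42, 1.32 and 5.89 CPM in Wild-type. Pu.1-URE-/- was at least 101-fold above a floor of 3 reads over the Mdmx-Tg group (edgeR adjusted p = 0.0146, up to 0.0542 without Pu.1-URE-/- 1, without Pu.1-URE-/- 3 or with the mouse-number series as a block). Its level is low, at 301 reads over the 3 Pu.1-URE-/- libraries.

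**Figure D2:**
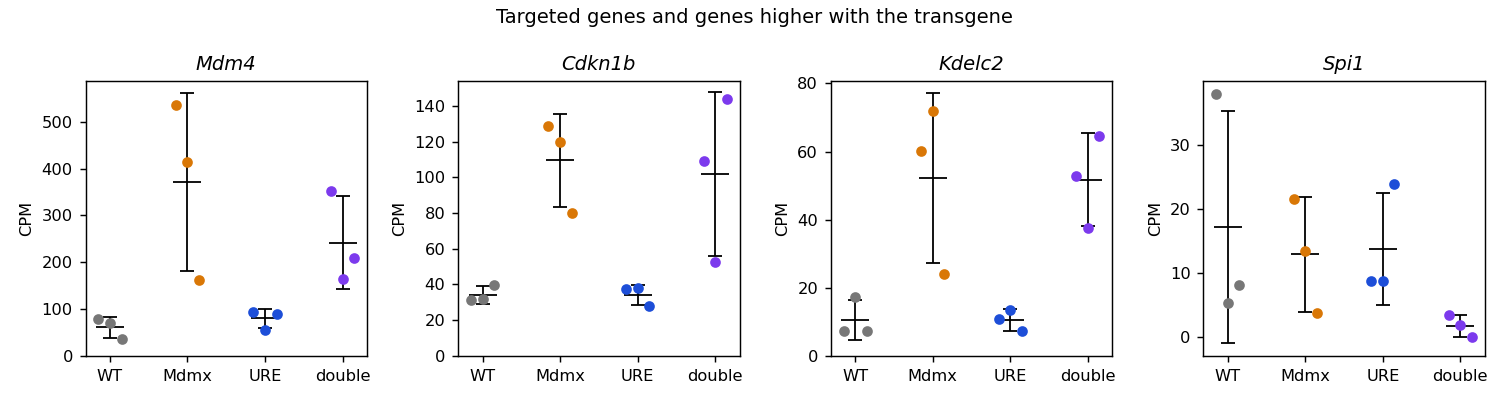
CPM of Mdm4, Cdkn1b, Kdelc2 and Spi1, 1 point per library, for Wild-type (WT), Mdmx-Tg (Mdmx), Pu.1-URE-/- (URE) and the double mutant (double). The horizontal line is the mean and the bars the SD of 3 libraries. In the first 3 genes the transgenic libraries lie above all others; in Spi1 the single mutants overlap.

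Granule genes of the neutrophil line gave the widest gap between the mutants. Azurophil granules are made first, at the promyelocyte stage, and carry myeloperoxidase and serine proteases. Of 15 azurophil genes tested (of 18 listed) 11 were higher in Pu.1-URE-/- and 0 lower, with a median log2 change of 3.83. Together the listed genes took 0.246% to 0.302% of the reads in Mdmx-Tg and 3.27% to 6.17% in Pu.1-URE-/-. Elane, the gene of neutrophil elastase (chromosome 10, 79886247 to 79888215), stood at 121, 138 and 226 CPM in Mdmx-Tg against 22494, 9697 and 17982 CPM in Pu.1-URE-/-. No library of one group came near the other, and Pu.1-URE-/- 2 was the lowest of its group. The log2 change was 6.69 ± 0.57 (edgeR adjusted p = 0.000245), or 104-fold.

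The next azurophil genes by p were cathepsin G and the protease inhibitor Cst7. Ctsg stood at 87.8, 165 and 162 CPM in Mdmx-Tg against 5031, 3097 and 5032 CPM in Pu.1-URE-/- (31.8-fold; edgeR adjusted p = 0.000441), and Cst7 was 23.3-fold higher. Prtn3, the gene of proteinase 3, whose model ends just before that of Elane on chromosome 10 (79874476 to 79883174), was 16.7-fold higher (142 ± 20.3 against 2383 ± 846 CPM, SD, n = 3 each; edgeR adjusted p = 0.00107). These 4 calls held with any library left out.

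Specific and gelatinase granules form later, at the myelocyte stage and beyond, and hold antimicrobial and matrix-binding proteins. Of 17 such genes tested (of 20 listed) 14 were higher and 0 lower. Their median log2 difference was 12.71; placing the 4 genes without a read in a group at their bound made it 10.39. The listed genes took 0.0201% to 0.0424% of the reads in Mdmx-Tg and 2.45% to 8.74% in Pu.1-URE-/-. Camp, the cathelicidin gene, stood at 0.0383, 0.392 and 0.484 CPM in Mdmx-Tg, which is 49 reads over the 3 libraries. In Pu.1-URE-/- it stood at 30216, 8354 and 14241 CPM, all far above Mdmx-Tg (log2 change 15.80 ± 1.14; edgeR adjusted p = 0.000162). Ngp, another granule protein gene, stood at 0.0192, 0.746 and 2.28 and 49208, 13396 and 36345 CPM.

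Several of these genes had almost no reads in Mdmx-Tg. Orm1, the gene of the acute phase protein orosomucoid, had none. In Pu.1-URE-/- (189, 77.5 and 152 CPM) its level was at least 7397-fold above a floor of 3 reads. Mcemp1, a membrane protein of mast cells and myeloid cells, was at least 12269.7-fold higher by the same floor. The 12 largest rises had fitted log2 changes of 9.24 to 16.58, which depend on the prior count where Mdmx-Tg had no read, and also held Lrg1, Cd177, Wfdc21, Fcnb, Mogat2 and C3. Chit1, a chitinase, had 2 reads in all of Mdmx-Tg and stood at 982, 289.9 and 589 CPM in Pu.1-URE-/-. Hp, the haptoglobin gene, was measured in both groups, at 4.77, 4.199 and 10.01 and 1617, 572 and 1359 CPM (187-fold; edgeR adjusted p = 0.000162). The calls of Orm1, Mcemp1, Lrg1, Cd177, Wfdc21, Chit1 and Hp held with any library left out. Fcnb lost its call without Mdmx-Tg 1, Mdmx-Tg 2, Pu.1-URE-/- 1 or Pu.1-URE-/- 3 (edgeR adjusted p of up to 0.0617), and Mogat2 without Mdmx-Tg 1, Pu.1-URE-/- 1 or Pu.1-URE-/- 3 (up to 0.0766). C3 lost it without any of 7 single libraries, Mdmx-Tg 2 and 3, Pu.1-URE-/- 1 and 3 and the 3 of the double mutant (up to 0.105).

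The list of S100 proteins and late neutrophil genes had 10 of 16 tested members higher and 0 lower (23 listed), with a median log2 change of 5.95. S100a8, the calcium-binding subunit of calprotectin, stood at 3.24, 10.4 and 3.08 CPM in Mdmx-Tg against 10447, 2808 and 9556 CPM in Pu.1-URE-/- (1367-fold; edgeR adjusted p = 0.000185). Its partner S100a9 went from 0, 6.55 and 0 to 2034, 391 and 1747 CPM, and that call ended without Pu.1-URE-/- 1 or Pu.1-URE-/- 3 (edgeR adjusted p = 0.0173, up to 0.0527) and in a fit of the 6 libraries alone (0.0669). S100a11 was present in both mutants, at 37.2, 40.6 and 37.7 CPM and 330.3, 190.4 and 324 CPM, and was 7.32-fold higher in Pu.1-URE-/-. All 3 Pu.1-URE-/- libraries lay above all Mdmx-Tg libraries.

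The promoters of 4 genes are shown because their genes carry the granule result and the largest falls: in each of 2 sets, the azurophil genes called higher and the 12 largest falls, the 2 genes of smallest p with an entry in the promoter table of RefSeq (GRCm38.p6). Each runs from 250 bases before to 50 bases after the start, 5′ to 3′ on the gene's strand. Capitals mark a match to either motif searched, on both strands: GAGGAAG, a PU.1 core motif whose reverse complement is CTTCCTC, or TTGCNNAA, a C/EBP motif. Elane lies at chr10:79886062-79886361 (plus strand), Ctsg at chr14:56102525-56102824 (minus), Serpinf1 at chr11:75422574-75422873 (minus) and Tbxas1 at chr6:38918736-38919035 (plus). Each is the first entry listed for its gene. That of Tbxas1 lies inside the gene model used for the counts, which starts at 38875404, so its start is an internal one.
Elane: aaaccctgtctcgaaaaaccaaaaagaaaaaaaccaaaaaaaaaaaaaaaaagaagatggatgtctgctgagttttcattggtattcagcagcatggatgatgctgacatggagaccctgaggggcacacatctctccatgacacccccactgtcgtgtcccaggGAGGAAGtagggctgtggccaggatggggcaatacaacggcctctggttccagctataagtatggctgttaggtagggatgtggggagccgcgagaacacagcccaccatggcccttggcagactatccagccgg
Ctsg: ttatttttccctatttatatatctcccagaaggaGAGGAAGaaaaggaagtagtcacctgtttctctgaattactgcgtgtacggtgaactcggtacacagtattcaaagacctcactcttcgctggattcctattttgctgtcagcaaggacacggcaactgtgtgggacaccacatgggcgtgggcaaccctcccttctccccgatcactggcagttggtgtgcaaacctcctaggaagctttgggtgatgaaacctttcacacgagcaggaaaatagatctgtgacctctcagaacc
Serpinf1: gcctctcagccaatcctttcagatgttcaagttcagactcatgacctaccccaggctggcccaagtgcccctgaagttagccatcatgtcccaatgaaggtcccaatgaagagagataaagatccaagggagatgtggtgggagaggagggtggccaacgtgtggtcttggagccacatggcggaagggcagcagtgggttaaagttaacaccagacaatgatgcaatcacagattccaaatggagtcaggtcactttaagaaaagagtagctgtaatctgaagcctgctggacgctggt
Tbxas1: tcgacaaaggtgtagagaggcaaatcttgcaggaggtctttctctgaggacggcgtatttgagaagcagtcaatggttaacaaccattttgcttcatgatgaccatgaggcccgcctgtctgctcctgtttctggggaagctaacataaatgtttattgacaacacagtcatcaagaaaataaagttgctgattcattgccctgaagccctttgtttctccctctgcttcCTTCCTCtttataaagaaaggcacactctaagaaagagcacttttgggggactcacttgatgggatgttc

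The PU.1 core began 85 bases before the start in Elane and 216 before it in Ctsg, and its reverse complement 20 before it in Tbxas1. Serpinf1 held no match to either motif, and none of the 4 held the C/EBP motif. The PU.1 core was present in 13.6% of all 32851 promoters in the table, and the C/EBP motif in 10.8%. By gene, the PU.1 core was in 129 of 704 promoters of genes called higher (18.3%), 63 of 343 of those called lower (18.4%) and 1696 of 10618 of all genes tested (15.97%). The C/EBP motif was in 12.8%, 10.8% and 10.5% of the same sets. Promoters were matched for 79.0% of the genes called higher and 70.7% of all tested, under the 80% needed, so a comparison of these shares is void. Among the 12 largest falls 8 had a promoter, also too few, with the PU.1 core in 5 and the C/EBP motif in 3. Within the small granule sets the PU.1 core was in 4 of 9 azurophil genes (Elane, Ctsg, Prtn3 and Mpo) and 5 of 12 specific and gelatinase genes, and the C/EBP motif in 2 of 9 and 4 of 12. A match is a description of letters and not a binding site, and the motifs, the gene sets and the rule for the printed promoters were settled after matches had been seen.

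**Figure D3:**
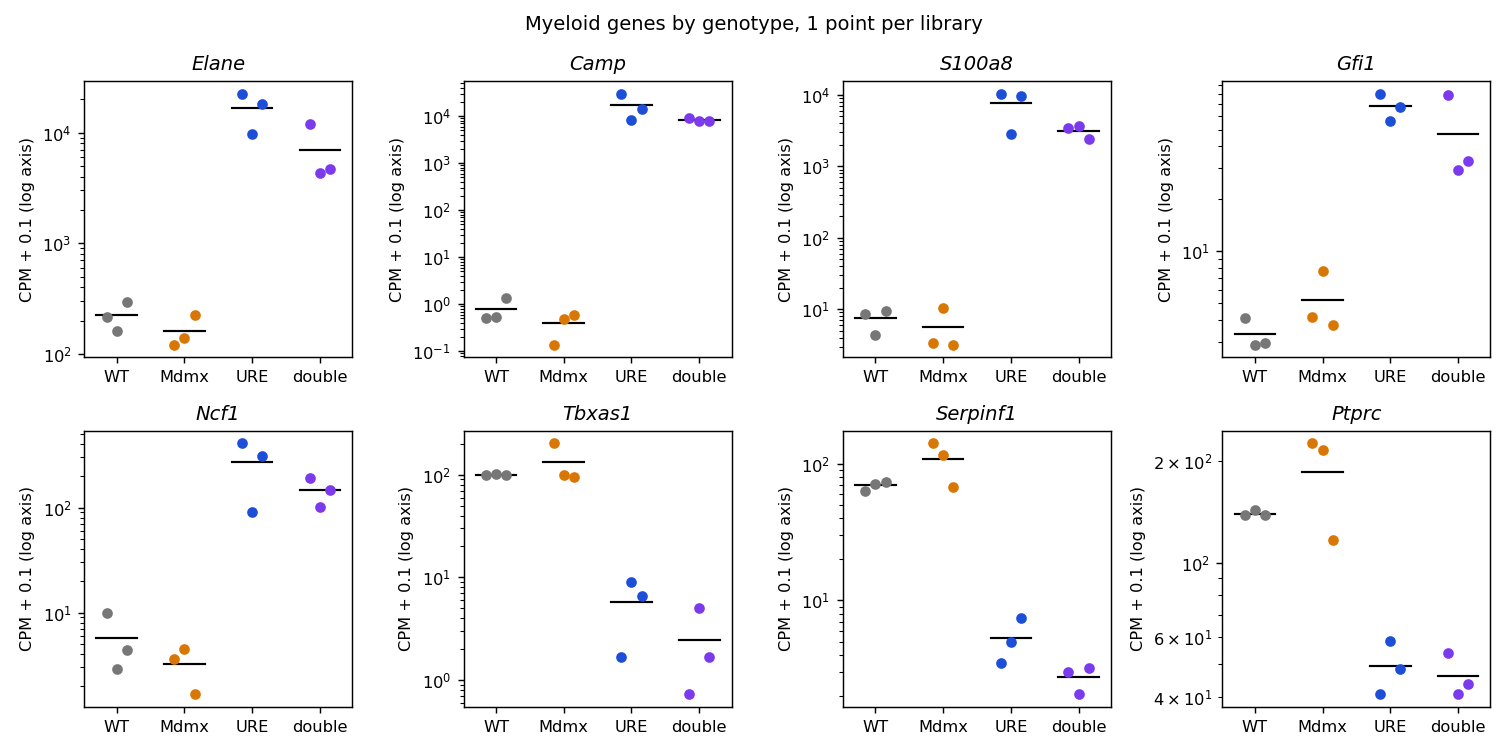
CPM + 0.1 on a log axis for 8 myeloid genes, 1 point per library, with the mean as a line; WT is Wild-type, Mdmx is Mdmx-Tg, URE is Pu.1-URE-/- and double is the double mutant. Elane, Camp, S100a8, Gfi1 and Ncf1 are high in both groups without the element, and Tbxas1, Serpinf1 and Ptprc are lower in both than in the other groups.

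Among 24 transcription factors of the granulocyte line 7 were higher and 0 lower, with a median log2 change of 0.51. Gfi1, a repressor needed for neutrophil differentiation, stood at 4.100, 7.57 and 3.68 CPM in Mdmx-Tg against 80.4, 55.98 and 67.5 CPM in Pu.1-URE-/- (13.3-fold; edgeR adjusted p = 0.00121). Cebpe, which drives the later granule genes, stood at 0, 1.55 and 1.78 and 674, 399.9 and 997 CPM (edgeR adjusted p = 0.0126). Both held with any library left out, while the list's 7 calls were 3 without Pu.1-URE-/- 1 or Pu.1-URE-/- 3.

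Cebpa, the factor that commits progenitors to the granulocyte line, had 2.17, 1.25 and 1.19 CPM in Wild-type, 6.303, 9.05 and 7.48 in Mdmx-Tg and 38.3, 23.8 and 41.1 in Pu.1-URE-/-. The 3 groups did not overlap. The difference between the mutants was 4.52-fold (edgeR adjusted p = 0.0121, up to 0.0629 without Pu.1-URE-/- 1 or Pu.1-URE-/- 3), while Mdmx-Tg minus Wild-type was not called (edgeR adjusted p = 0.259). Id1, an inhibitor of E proteins, had no read in Mdmx-Tg. Pu.1-URE-/- had 29.2, 12.5 and 30.9 CPM, at least 1281-fold above the floor of 3 reads.

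Of 23 myeloid cytokine receptors 5 were higher and 0 lower, though the list's median was -0.24. Ifngr1, the interferon gamma receptor, was 3.21-fold higher (216 ± 95.2 against 691 ± 67.3 CPM, SD, n = 3 each; edgeR adjusted p = 0.00732). Csf3r, the receptor of the granulocyte growth factor G-CSF, stood at 0.958, 8.398 and 25.7 and 210.2, 116 and 197 CPM. Its call (edgeR adjusted p = 0.0232) ended without Mdmx-Tg 2, Pu.1-URE-/- 1 or Pu.1-URE-/- 3, in a fit of the 6 libraries alone and with the mouse-number series as a block, at up to 0.0891. The list's 5 calls were 2 without Pu.1-URE-/- 1 or Pu.1-URE-/- 3 and 3 without Mdmx-Tg 1 or Mdmx-Tg 3.

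The NADPH oxidase makes the superoxide burst of phagocytes. Of its 7 subunits, all tested, 5 were higher in Pu.1-URE-/- and 0 lower. Ncf1 (p47phox) stood at 3.47, 4.36 and 1.56 CPM in Mdmx-Tg against 409, 91.2 and 312 CPM in Pu.1-URE-/- (86.6-fold; edgeR adjusted p = 0.00107). Ncf4 (p40phox) was 17.3-fold and the GTPase Rac2 5.22-fold higher. Ncf1, Ncf4 and Rac2 held with any library left out, while Cyba, the p22phox gene, lost its call without Mdmx-Tg 1, Mdmx-Tg 2, Pu.1-URE-/- 1 or Pu.1-URE-/- 3 (edgeR adjusted p of up to 0.0728), and leaving out any 1 of these 4 left the list with 3 calls.

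Genes known to depend on PU.1 went both ways. Of 50 tested (of 52 listed) 13 were higher and 7 lower, with a median log2 change of 0.42. Fcer1g, the signalling chain of Fc receptors, was 6.69-fold higher, and the leukocyte integrin chain gene Itgb2 10.2-fold. Ptprc, which encodes the CD45 phosphatase of all blood cells, stood at 226, 216 and 117 CPM in Mdmx-Tg against 40.5, 58.6 and 48.2 CPM in Pu.1-URE-/-. The groups did not overlap (log2 change -1.92 ± 0.26, 3.79-fold lower; edgeR adjusted p = 0.00206). Of the list's 20 calls, 13 were left without Mdmx-Tg 1, 11 without Pu.1-URE-/- 1 and 10 without Pu.1-URE-/- 3.

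The 12 largest falls all stood at 8.96 CPM or less in each Pu.1-URE-/- library. Serpinf1, the gene of a secreted serpin (chromosome 11, 75409769 to 75422701), stood at 141, 117 and 67.7 CPM in Mdmx-Tg against 3.37, 4.89 and 7.27 CPM in Pu.1-URE-/- (log2 change -4.39 ± 0.38; edgeR adjusted p = 0.000245). Tbxas1, the gene of thromboxane synthase (chromosome 6, 38875404 to 39084585), stood at 203, 98.8 and 94.5 and 1.57, 8.96 and 6.45 CPM (23.3-fold lower; edgeR adjusted p = 0.00732). In both genes the highest Pu.1-URE-/- library was far below the lowest Mdmx-Tg library, though the largest falls were taken only among genes without overlap. For Tbxas1, Wild-type had 99.5, 102 and 99.3 CPM and the double mutant 0.623, 4.93 and 1.57. Both groups without the element were low and both groups with it were high.

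Gdf3, a growth factor gene, and Lst1, a leukocyte membrane protein gene, were 16.7-fold and 20.3-fold lower, and both calls held with any library left out. Others among the 12 largest falls depended on single libraries. Nckap1l, an actin regulator of blood cells, stood at 96.2, 67.1 and 75.99 and 1.08, 2.32 and 1.99 CPM (edgeR adjusted p = 0.0212) and lost its call without Mdmx-Tg 1, Pu.1-URE-/- 1 or Pu.1-URE-/- 3 (up to 0.1001). Cd300a, an inhibitory receptor of myeloid cells, was 55.99-fold lower (edgeR adjusted p = 0.0126, up to 0.0574 without Pu.1-URE-/- 1 or Pu.1-URE-/- 3). Rnase6, a ribonuclease gene, was 28.5-fold lower, with an edgeR adjusted p of up to 0.0506 without Pu.1-URE-/- 1.

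Among stem cell genes, those that passed were all lower in Pu.1-URE-/-. Of 53 haematopoietic stem cell genes tested (of 55 listed) 12 were lower and 0 higher, 44 had a log2 change below 0, and the median was -1.27. In all 12 the Mdmx-Tg mean was above that of Wild-type and the Pu.1-URE-/- mean below it, as in 88.5% of all genes called lower. Over the whole list this order held in 31 of 53, against 23.4% of all genes tested.

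Mecom, the gene of the stem cell factor EVI1, stood at 116, 65.03 and 53.8 CPM in Mdmx-Tg, 35.8, 27.8 and 20.9 in Wild-type and 7.79, 17.9 and 19.7 in Pu.1-URE-/-. The log2 change was -2.37 ± 0.41 between the mutants (edgeR adjusted p = 0.00719), -0.90 for Pu.1-URE-/- minus Wild-type (edgeR adjusted p = 0.241) and 1.47 for Mdmx-Tg minus Wild-type (edgeR adjusted p = 0.367). Neither of the last 2 was called. The 3 groups did not overlap, and the call between the mutants held with any library left out.

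Other stem cell genes passed with less margin. Meis1, the partner of HOX proteins in stem cells, stood at 669, 467 and 290.1 CPM in Mdmx-Tg against 44.97, 147 and 107 CPM in Pu.1-URE-/- (edgeR adjusted p = 0.0248, up to 0.0905). Mllt3, a regulator of stem cell maintenance, stood at 118, 122 and 76.2 and 18.9, 39.01 and 18.7 CPM (edgeR adjusted p = 0.0139, up to 0.0728). Cd34, the gene of the progenitor surface marker, stood at 310.1, 285 and 189 and 66.9, 128 and 97.4 CPM (edgeR adjusted p = 0.0316, up to 0.129). In each of these the groups did not overlap, and each lost its call without Pu.1-URE-/- 1 or Pu.1-URE-/- 3, and Meis1 and Cd34 also without Mdmx-Tg 1 or Mdmx-Tg 2. The list's count of called genes was 2 without Pu.1-URE-/- 1 or Pu.1-URE-/- 3, 3 without Mdmx-Tg 1 or Mdmx-Tg 2, 5 in a fit of the 6 libraries alone and 7 with the mouse-number series as a block.

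The leukaemia-associated self-renewal list, which shares Mecom, Meis1 and Socs2 with the stem cell list, had 1 of 43 tested members higher and 6 lower (median -0.44). The one higher gene was Clec12a, a C-type lectin receptor of myeloid cells used as a leukaemia marker, which stood at 19.9, 18.2 and 11.9 CPM in Mdmx-Tg against 511, 211 and 209 CPM in Pu.1-URE-/- (18.6-fold; edgeR adjusted p = 0.000513). Mef2c, a factor of lymphoid and myeloid progenitors, stood at 115, 76.2 and 77.4 and 4.83, 18.9 and 26.5 CPM (5.34-fold lower; edgeR adjusted p = 0.013, 0.0525 in a fit of the 6 libraries alone). The 7 calls were 4 without Mdmx-Tg 1, Mdmx-Tg 2 or Pu.1-URE-/- 1, 3 without Pu.1-URE-/- 3 and 11 without Pu.1-URE-/- 2.

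**Figure D4:**
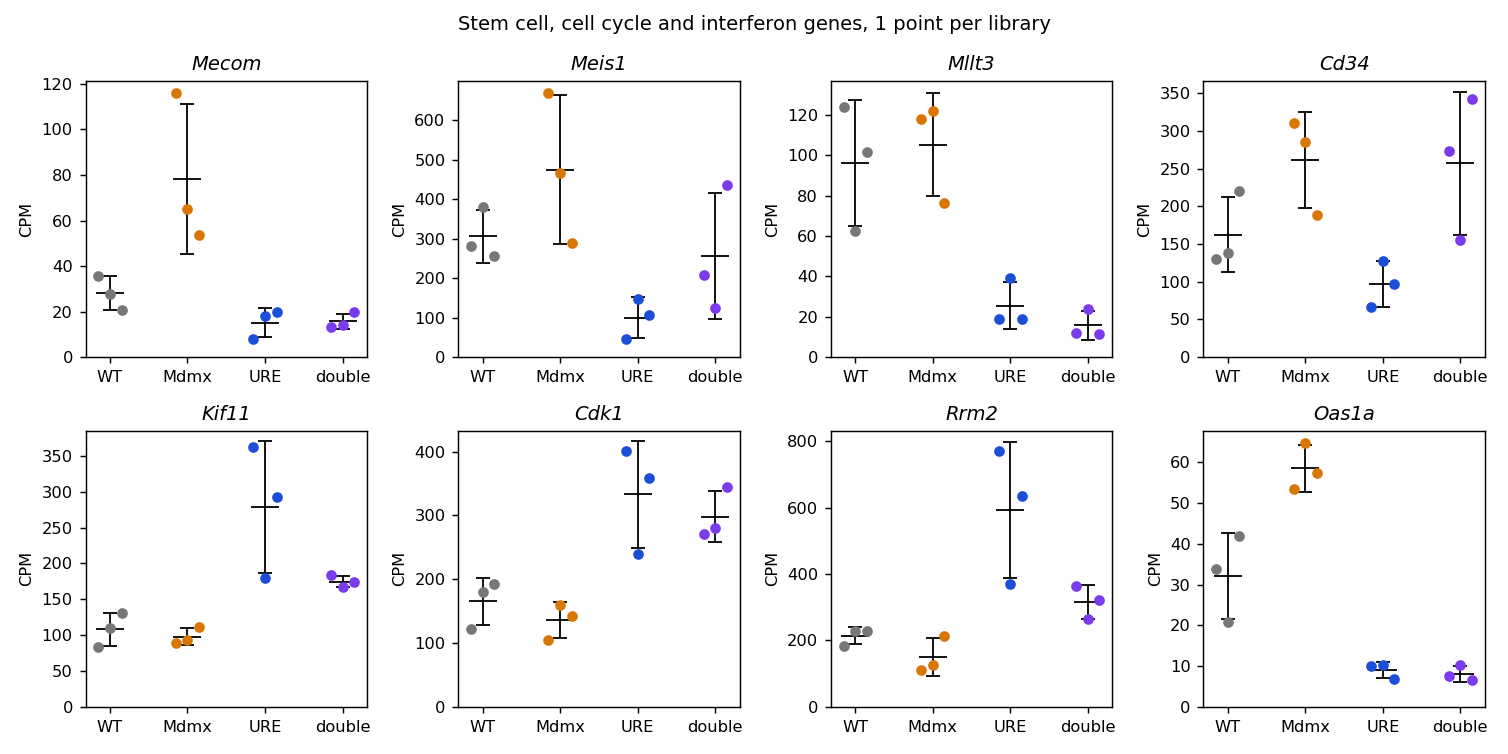
CPM of 4 stem cell genes (Mecom, Meis1, Mllt3, Cd34), 3 cell cycle genes (Kif11, Cdk1, Rrm2) and the interferon response gene Oas1a, 1 point per library, with mean and SD of 3; labels as WT for Wild-type, Mdmx for Mdmx-Tg, URE for Pu.1-URE-/- and double for the double mutant. Mdmx-Tg has the highest mean in the stem cell genes and in Oas1a, and Pu.1-URE-/- the highest in the cell cycle genes.

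Mitotic genes that passed were all higher in Pu.1-URE-/-. Of 40 G2/M phase genes 12 were higher and 0 lower, 39 had a log2 change above 0 and the median was 1.00; in 25 the groups did not overlap with Pu.1-URE-/- above (17.8% of all genes tested). In 33 of the 40 the means ran from Mdmx-Tg up through Wild-type to Pu.1-URE-/- (20.9% of all genes tested). Kif11, the motor of spindle pole separation, stood at 89.4, 93.3 and 112 CPM in Mdmx-Tg against 362, 179.7 and 293 CPM in Pu.1-URE-/- (2.84-fold; edgeR adjusted p = 0.00642). Cdk1, the kinase that starts mitosis, stood at 104, 160.2 and 142 and 401, 239.8 and 359 CPM (edgeR adjusted p = 0.0123, up to 0.0597 without Mdmx-Tg 1, Pu.1-URE-/- 1 or Pu.1-URE-/- 3). The groups did not overlap in either gene. The count of 12 was 1 without Pu.1-URE-/- 1 or Pu.1-URE-/- 3, 2 without Mdmx-Tg 1, 3 without Mdmx-Tg 2, 18 without Mdmx-Tg 3, 19 without Pu.1-URE-/- 2 and 7 in a fit of the 6 libraries alone.

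Of 40 S phase genes 6 were higher and 0 lower (15% called, against 8.78% of all genes tested). The median log2 change was 0.28. Rrm2, the regulated subunit of ribonucleotide reductase, stood at 110.3, 126 and 214 CPM in Mdmx-Tg against 771, 369 and 634 CPM in Pu.1-URE-/- (3.94-fold; edgeR adjusted p = 0.00468) and held with any library left out. The list had 2 called genes without Mdmx-Tg 1 and in a fit of the 6 libraries alone, and 1 without Mdmx-Tg 2, Pu.1-URE-/- 1 or Pu.1-URE-/- 3.

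Of 16 G1 cyclins, kinases and inhibitors 3 were higher and 1 lower (25% called, against 8.78% of all genes tested). Cdk2, the kinase of the G1 to S step, was 2.34-fold higher (124, 95.2 and 126 against 274, 239 and 293 CPM; edgeR adjusted p = 0.00893). The D-type cyclin gene Ccnd3 was 4.25-fold higher (edgeR adjusted p = 0.00963). The single lower gene was Cdkn1b. The 4 calls were 2 without Pu.1-URE-/- 1 or Pu.1-URE-/- 3.

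Genes induced by interferons that passed were lower in Pu.1-URE-/- with 1 exception. Of 42 tested 7 were lower and 1 higher, 34 had a log2 change below 0, and the median was -0.97. Oas1a, an antiviral sensor that makes oligoadenylate (chromosome 5, 120896256 to 120907521), stood at 53.4, 64.8 and 57.3 CPM in Mdmx-Tg, 33.7, 20.7 and 41.8 in Wild-type and 9.999, 10.2 and 6.72 in Pu.1-URE-/-. The 3 groups did not overlap (mutants apart by -2.71 ± 0.32 on the log2 scale; edgeR adjusted p = 0.00113). Gbp7, a guanylate-binding GTPase, was 2.65-fold lower (edgeR adjusted p = 0.00809), and Oas1a and Gbp7 held with any library left out.

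Ifi44, another induced gene, stood at 102, 139.6 and 52.3 CPM in Mdmx-Tg, 36.9, 32.4 and 30.7 in Wild-type and 10.2, 12.8 and 18.1 in Pu.1-URE-/- (edgeR adjusted p = 0.00918, 0.0519 without Pu.1-URE-/- 1). The one higher gene was Tap1, a peptide transporter of antigen presentation, at 67.5, 55.5 and 61.3 and 125, 119 and 128 CPM (edgeR adjusted p = 0.0212, up to 0.0864 without Mdmx-Tg 1, Mdmx-Tg 2, Pu.1-URE-/- 1 or Pu.1-URE-/- 3). The list's count of 8 called genes was 2 without Pu.1-URE-/- 1, 3 without Pu.1-URE-/- 3 or Mdmx-Tg 2, 4 without Mdmx-Tg 1 and 5 by limma-voom. Immunoglobulin genes took 4.16% to 11.9% of the reads in Mdmx-Tg and 0.611% to 3.31% in Pu.1-URE-/-. With them left out of the fit the list had 11 called genes, and Oas1a (edgeR adjusted p = 0.000909), Gbp7 (0.00498), Ifi44 (0.00639) and Tap1 (0.0203) were called as before. That fit kept every read of the interferon response genes. The part of other B lineage reads in these calls was not tested.

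The share of p53 targets called by edgeR was near that of all genes tested. Of 46 tested (of 48 listed) 3 were higher and 1 lower, 8.70% called against 8.78% of all genes, with a median log2 change of 0.31. The groups did not overlap in 13 members with Pu.1-URE-/- above (17.8% of all genes tested) and in 1 with it below (13.7% of all). Summed over the tested members, the level was 1028 to 1264 CPM in Mdmx-Tg and 1513 to 1767 CPM in Pu.1-URE-/-. DESeq2 called 12 members, and 3110 of 20696 genes in all. Xpc, a damage sensor of nucleotide excision repair, stood at 31.2, 20.6 and 27.4 CPM in Mdmx-Tg against 495, 248 and 450.3 CPM in Pu.1-URE-/- (15.05-fold; edgeR adjusted p = 0.000245); Wild-type stood at 24.1, 25.3 and 33.9 CPM, overlapping Mdmx-Tg. Ephx1, an epoxide hydrolase gene, stood at 14.4, 10.5 and 7.03 and 1.12, 0.792 and 0.788 CPM (edgeR adjusted p = 0.0185, up to 0.0845 without Mdmx-Tg 1, Pu.1-URE-/- 1 or Pu.1-URE-/- 3). The list held 1 called gene without Pu.1-URE-/- 1 or Pu.1-URE-/- 3 and 2 without Mdmx-Tg 1 or Mdmx-Tg 3. Cdkn1a, the p21 gene and the best known target, was outside the naming rule and is added after its values were seen: 12.95, 3.12 and 5.04 CPM in Mdmx-Tg against 25.8, 59.7 and 18.1 CPM in Pu.1-URE-/- (log2 change 2.30 ± 0.65; edgeR adjusted p = 0.0511). Its groups did not overlap, yet it missed the threshold.

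Of 16 BCL2 family genes 1 was higher (6.25% called, against 8.78% of all genes tested). It was the survival gene Bcl2l1, at 13.1, 14.5 and 19.7 and 48.8, 30.2 and 51.3 CPM (edgeR adjusted p = 0.0465). Bcl2l1 lost its call without any of 9 single libraries, at up to 0.166. Of 20 Wnt/beta-catenin target genes 2 were higher (10% called), Birc5 and Id2, though 12 of the 20 had a log2 change below 0 and the median was -0.51. Both calls ended without Pu.1-URE-/- 1 or Pu.1-URE-/- 3 and some other libraries (edgeR adjusted p of up to 0.0964 and 0.163). None of 23 NF-kappaB and inflammatory genes and none of 24 immediate early genes was called by edgeR; DESeq2 called 1 and 0, and at an unadjusted p under 0.05 0 and 1 passed by edgeR.

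Of 26 glycolysis genes (25 symbols, of which Aldoa has 2 gene IDs) 5 were higher and 1 lower, with a median log2 change of 0.51. Gpi1, the second enzyme of the pathway, stood at 207, 195 and 220.0 CPM in Mdmx-Tg against 1370.3, 648 and 1262 CPM in Pu.1-URE-/- (5.27-fold; edgeR adjusted p = 0.0011). The lower gene was Ldhb, the lactate dehydrogenase chain that favours pyruvate, at 219.9, 189.7 and 118 and 15.05, 43.6 and 41.1 CPM (5.29-fold lower; edgeR adjusted p = 0.00604). Both held with any library left out, and the 6 calls were 3 without Pu.1-URE-/- 3.

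Of 62 cytosolic ribosomal protein genes 8 were lower and 0 higher, 60 had a log2 change below 0 and the median was -0.58. Rpl7 stood at 838, 897 and 936 CPM in Mdmx-Tg against 425, 592 and 467 CPM in Pu.1-URE-/- (edgeR adjusted p = 0.0268). The 8 calls were 0 without Pu.1-URE-/- 1, Pu.1-URE-/- 3 or Mdmx-Tg 2, 1 without Mdmx-Tg 1, 3 without Mdmx-Tg 3 and 17 without Pu.1-URE-/- 2. Ribosome biogenesis genes had 4 of 32 lower and 0 higher (12.5% called, against 8.78% of all genes tested), with a median of -0.33. These 4 calls were 0 without Mdmx-Tg 1, Mdmx-Tg 2, Pu.1-URE-/- 1 or Pu.1-URE-/- 3 and 2 without Mdmx-Tg 3.

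Mitochondrially encoded genes took a smaller share of reads in Pu.1-URE-/- than in Mdmx-Tg. Of 13 genes 2 were called lower, mt-Nd2 and mt-Nd6, both subunits of complex I. The median log2 change was -0.57 and 12 of 13 were below 0. Mdmx-Tg libraries had shares of 2.52% to 3.33%, all above the 1.46% to 2.39% of Wild-type. Those of Pu.1-URE-/-, at 1.47% to 1.84%, lay within the Wild-type range. Double mutant libraries, at 2.21% to 3.23%, overlapped both Mdmx-Tg and Wild-type and lay above every Pu.1-URE-/- library. Against Wild-type the median log2 change was 0.63 for Mdmx-Tg, 0.42 for the double mutant and 0.01 for Pu.1-URE-/-. mt-Nd2 stood at 284, 375 and 285 CPM in Mdmx-Tg against 162, 194 and 163 CPM in Pu.1-URE-/- (edgeR adjusted p = 0.0224, up to 0.1003 without Mdmx-Tg 2, Pu.1-URE-/- 1 or Pu.1-URE-/- 3). Wild-type stood at 235, 198 and 156 CPM, overlapping Pu.1-URE-/-. mt-Nd6 lost its call without any of 8 single libraries (edgeR adjusted p of up to 0.174). The 2 calls were 0 without Mdmx-Tg 2, Pu.1-URE-/- 1 or Pu.1-URE-/- 3, 1 without Mdmx-Tg 1 and 4 without Mdmx-Tg 3.

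Adhesion genes by which stem and progenitor cells hold to their niche had 7 of 24 higher and 1 lower. Vcam1, an adhesion molecule for integrin alpha4, stood at 3.03, 9.22 and 3.86 CPM in Mdmx-Tg against 2661, 971 and 2069 CPM in Pu.1-URE-/- (354-fold; edgeR adjusted p = 0.000604). Its partner Itga4 was the lower gene, at 97.6, 119.8 and 102 and 43.7, 66.1 and 47.7 CPM. The 8 calls were 5 without Pu.1-URE-/- 1 or Pu.1-URE-/- 3. Pecam1, the CD31 gene of endothelium and leukocytes, was 5.098-fold higher (edgeR adjusted p = 0.0043). Flt1, a receptor of endothelial growth factor also found on monocytes, had no read in Mdmx-Tg or Wild-type and 19.5, 12.5 and 18.04 CPM in Pu.1-URE-/-, at least 884-fold above the floor of 3 reads. Of the 13 endothelial and stromal markers tested these 2 were higher and Emcn was lower, a call that ended without Mdmx-Tg 1, Mdmx-Tg 2, Pu.1-URE-/- 1 or Pu.1-URE-/- 2 (edgeR adjusted p of up to 0.0898). The 13 markers' summed level was 56.6 to 108 CPM in Mdmx-Tg and 182 to 267 CPM in Pu.1-URE-/-.

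Of 19 mast cell and basophil genes 2 were higher and 4 lower (31.6% called, against 8.78% of all genes tested). The median log2 change was -1.47. Mcpt8, a basophil protease, stood at 32.4, 20.4 and 21.4 CPM in Mdmx-Tg against 240.3, 229 and 321 CPM in Pu.1-URE-/- (10.6-fold; edgeR adjusted p = 0.00276), and Slc18a2, the vesicular monoamine transporter of mast cells, stood at 147, 83.2 and 101 and 25.5, 56.03 and 30.6 CPM (edgeR adjusted p = 0.0235, up to 0.104 without Mdmx-Tg 1, Pu.1-URE-/- 1 or Pu.1-URE-/- 3). The 6 calls were 1 without Mdmx-Tg 1, Pu.1-URE-/- 1 or Pu.1-URE-/- 3.

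Of 32 megakaryocyte and platelet genes 4 were higher and 1, Tbxas1, lower (15.6% called, against 8.78% of all genes tested). Yet 22 of the 32 had a log2 change below 0, and the median was -0.60. Serpine2, a serpin that inhibits thrombin, stood at 13.8, 10.3 and 6.56 CPM in Mdmx-Tg against 636, 265 and 565 CPM in Pu.1-URE-/- (47.8-fold; edgeR adjusted p = 0.000245), and the tetraspanin gene Cd63 was 4.99-fold higher. Both held with any library left out. Of 35 erythroid genes 2 were higher and 1 lower (8.57% called, against 8.78% of all genes tested). The 3 calls were 1 without Pu.1-URE-/- 3. The lower gene, the erythroid and stem cell factor gene Tal1, lost its call without any of 11 of the 12 single libraries (edgeR adjusted p of up to 0.175). Of 7 eosinophil genes 0 were called by edgeR and 1 by DESeq2, with 2 at an unadjusted p under 0.05.

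Monocyte and macrophage genes had 2 of 23 higher and 1 lower, and lymphoid priming genes 2 of 23 higher and 2 lower, each with a median below 0 (-0.45 and -0.50). The 3 monocyte calls were 1 without Pu.1-URE-/- 1 or Pu.1-URE-/- 3, and the 4 lymphoid calls 1 without Mdmx-Tg 1 and 2 without Mdmx-Tg 2, Pu.1-URE-/- 1 or Pu.1-URE-/- 3. Of the called genes, the monocyte surface gene Ly6c2 lost its call without any of 10 single libraries and the lymphoid factor gene Bcl11a without any of 9 (edgeR adjusted p of up to 0.141 and 0.155). Notch1, the receptor that starts T cell development, stood at 9.75, 6.55 and 9.77 CPM in Mdmx-Tg against 26.9, 35.5 and 24.4 CPM in Pu.1-URE-/- (edgeR adjusted p = 0.0223, up to 0.0771 without Mdmx-Tg 1, Mdmx-Tg 2 or any Pu.1-URE-/- library). Of 18 T cell and NK cell markers 1 was higher (5.56% called, against 8.78% of all genes tested). It was Nkg7, a granule protein gene that is also on the azurophil list.

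None of the 15 mature B cell and plasma cell markers tested was called by edgeR, 2 were by DESeq2 and 2 passed at an unadjusted p under 0.05. The median log2 change was -1.97, with 14 of 15 below 0. The listed markers took 2.68% to 8.48% of the reads in Mdmx-Tg and 0.584% to 2.53% in Pu.1-URE-/-, without overlap. Jchain, the immunoglobulin joining chain of plasma cells, stood at 3344, 9194 and 12130.3 CPM in Mdmx-Tg against 430.3, 874 and 2542 CPM in Pu.1-URE-/- (edgeR adjusted p = 0.212). Of 15 dendritic cell and MHC class II genes 1 was lower (6.67% called, against 8.78% of all genes tested). It was H2-Eb1, a class II beta chain gene also carried by B cells, at 45.7, 52.3 and 17.1 and 5.52, 9.33 and 11.1 CPM (edgeR adjusted p = 0.0344, up to 0.137 without Mdmx-Tg 1, Mdmx-Tg 2, any Pu.1-URE-/- library or Wild-type 2). With the immunoglobulin genes left out of the fit the log2 change of H2-Eb1 was -2.18 (edgeR adjusted p = 0.0295). The part of other B lineage reads in that call was not tested.

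**Figure D5:**
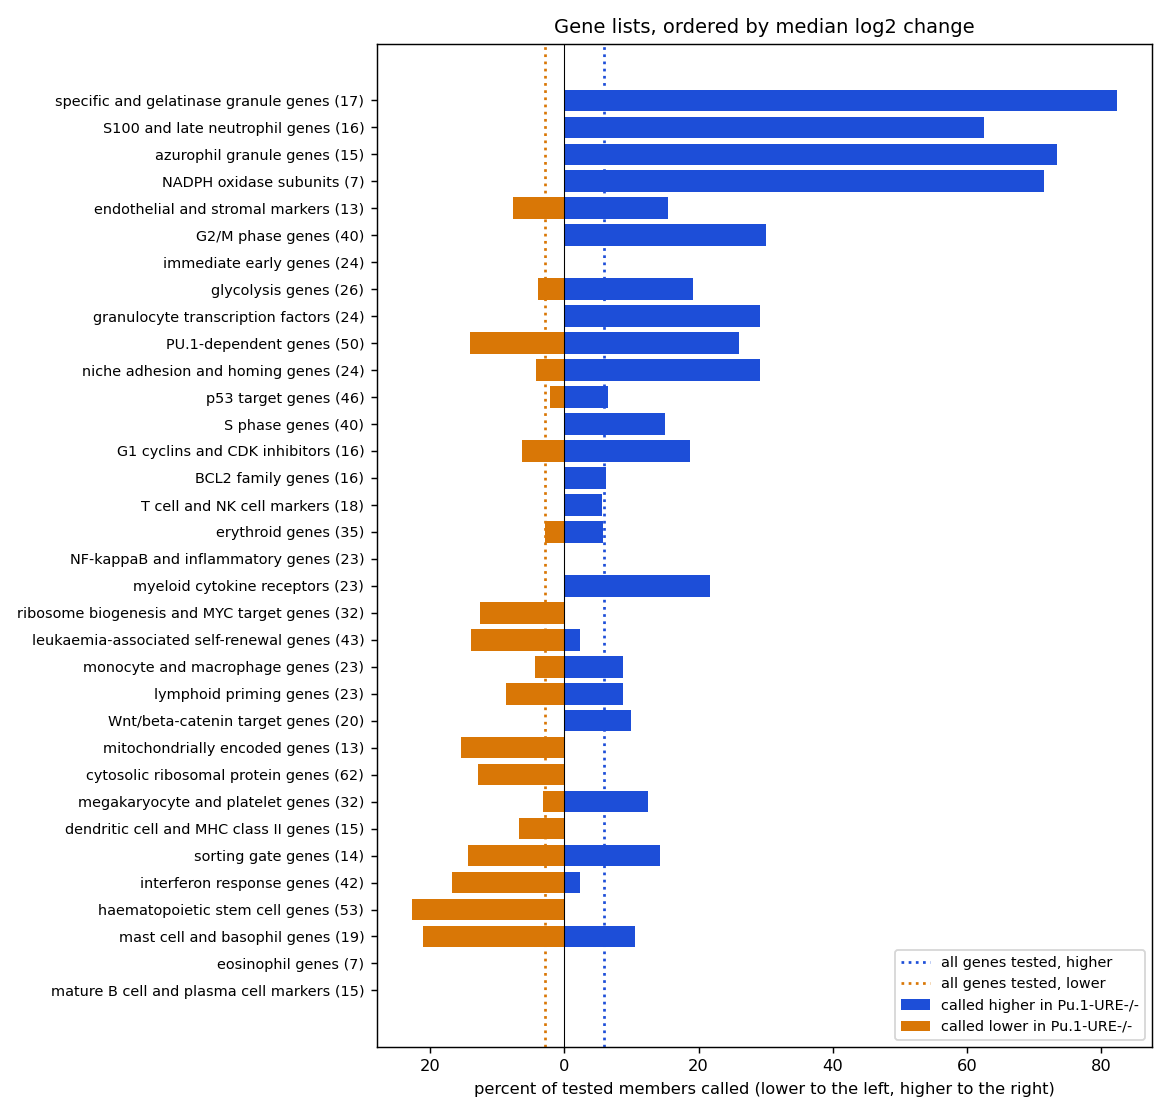
Share of the tested members of each gene list that edgeR called higher (blue, to the right) or lower (orange, to the left) in Pu.1-URE-/-, with the number tested in brackets and lists ordered by median log2 change; dotted lines give the shares over all genes tested, 5.94% and 2.84%. The granule and NADPH oxidase lists reach the highest shares on the right, and 12 of 53 stem cell genes and 4 of 19 mast cell genes lie on the left.

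In some of the called genes Mdmx-Tg lay farther from Wild-type than Pu.1-URE-/- did. Of 1082 called genes that code for protein, average 2 or more in log2 CPM and show no overlap, this held for 238, and the 8 of smallest p are the ones the naming rule takes. Dda1, a subunit of DDB1 ubiquitin ligases, stood at 30.5, 37.7 and 41.2 CPM in Mdmx-Tg, 81.3, 99.4 and 99.4 in Wild-type and 136, 97.98 and 110.1 in Pu.1-URE-/-. The Mdmx-Tg libraries were all below those of Wild-type, whose highest values reached the lower Pu.1-URE-/- values. The mutants differed 3.15-fold (edgeR adjusted p = 0.00116), while Mdmx-Tg minus Wild-type was -1.36 on the log2 scale (edgeR adjusted p = 0.134) and Pu.1-URE-/- minus Wild-type 0.30 (edgeR adjusted p = 0.457).

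Ncaph2, a condensin II subunit, and Gorasp2, a Golgi stacking protein gene, were 2.43-fold and 2.87-fold higher in Pu.1-URE-/-.

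Crebl2 and Parp9 lay on the other side, with Mdmx-Tg above. Crebl2, a gene of a leucine zipper protein (chromosome 6, 134830154 to 134858931), stood at 101, 115 and 54.7 CPM in Mdmx-Tg, 31.9, 46.7 and 30.3 in Wild-type and 10.8, 22.8 and 10.4 in Pu.1-URE-/- (edgeR adjusted p = 0.00411). The double mutant had 36.4, 27.5 and 46.96 CPM, overlapping Wild-type. Parp9, an interferon-linked ADP-ribosyltransferase gene, stood at 54.4, 71.5 and 58.7 CPM in Mdmx-Tg, 25.5, 19.2 and 34.8 in Wild-type and 15.9, 22.5 and 21.2 in Pu.1-URE-/- (edgeR adjusted p = 0.00555). None of the 5 genes Dda1, Ncaph2, Gorasp2, Crebl2 and Parp9 was called for Mdmx-Tg minus Wild-type, and all 5 calls between the mutants held with any library left out.

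The labels name no series. Series were read here from the leading digits of the mouse numbers, with 1 pair of neighbouring values merged. Of these series 2 hold libraries of both mutants: Mdmx-Tg 1 with Pu.1-URE-/- 1, and Mdmx-Tg 2 with Pu.1-URE-/- 2 and 3. Within these the direction of the whole comparison was found again in 891 and 891 of the 891 genes called higher, and in 426 and 427 of the 427 called lower. These are the libraries that made the calls, so the agreement is a description. With the series as a block 1234 genes were called, of which 997 are among the 1318.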

How the data were processed

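RNA of the 12 libraries was sequenced on a BGISEQ-500 instrument, paired-end, per the labels' protocols. The authors deposited estimated counts and TPM per transcript, which per the file headers are Salmon's columns; FastQC, Salmon, DESeq2, mm10 and GRCm38 are named without roles or versions in the submitters' processing notes. Here the deposited estimated counts were summed per gene with the GENCODE M21 annotation (99.8% of transcripts matched) and rounded. The deposited TPM values were used only for the levels and shares of Mdm4 and Spi1 transcripts.

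Genes passed a low-count filter (filterByExpr, minimum count 10 and minimum total 15). TMM factors and edgeR 4.0.16 (R 4.3.3) quasi-likelihood tests with 1 mean per genotype over all 12 libraries followed, with Benjamini-Hochberg adjustment over 15012 genes and a threshold of 0.05. The scripts were tested on simulated data. Alternatives used DESeq2 1.42.0 and limma-voom (limma 3.58.1), other filters, blocks and libraries left out. Library depth limits precision chiefly for genes with few reads. The deviations of same-numbered libraries correlated at -0.02, 0.03 and 0.02, so the replicate numbers were not taken to pair them.

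The members and gene lists were chosen with earlier results of these data known. The naming rule took Mdm4, Spi1, Mdm2 and Trp53, and the 12 largest rises and 12 largest falls among protein-coding genes that were called, averaged 2 or more in log2 CPM and had no overlap between the groups. It also took up to 5 called genes of smallest p per list (or the 2 of smallest p where fewer than 2 were called), the 8 of smallest p with Mdmx-Tg farther from Wild-type, and genes called the opposite way in the double mutant minus Wild-type. Some genes that the rule took are not reported here.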

Additional observations from a re-analysis of the deposited data

How the results depend on the processing

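No gene called both in the main fit of Pu.1-URE-/- minus Mdmx-Tg and in an alternative differed in direction between them. The direction of genes that lost their call was checked only for the named genes. With 1 library left out at a time, 380 to 1586 genes were called, 302 to 964 higher and 78 to 622 lower, and 3.5e+02 to 1068 moved the same way between the double mutant and Wild-type. The lowest counts came without Pu.1-URE-/- 3. DESeq2 called 3110 genes, 1707 higher and 1403 lower, with 2151 the same way. In a fit of the 6 libraries alone 949 genes were called and 233 were lower. The cause of these shifts was not tested. The other alternatives stayed within 1.5 times of the 1318 genes, from 1058 without a low-count filter to 1694 by limma-voom. With the replicate number as a block 1260 genes were called, 845 higher and 415 lower, and 1092 of the 1318 were shared; the numbers do not pair the libraries. Over the named genes and their alternatives, 417 values lost their call and 23 gained one. Among named genes called in the main fit 0 values reversed. Named genes that were not called could change sign: Spi1 ran from -0.89 to 0.78 on the log2 scale, and Mdm2 and Trp53 also changed sign. Over the lists, 187 counts of called members moved by more than 1.5 times. By DESeq2 the stem cell list had 24 called genes in place of 12, the G2/M list 25 in place of 12, the interferon list 17 in place of 8 and the ribosomal protein list 23 in place of 8. Calls rose over all genes as well, to 3110 of 20696 by DESeq2 against 1318 of 15012 by edgeR. The transcript shares by estimated reads in place of TPM were 76.2% for Mdm4-201 and 38.9% for Spi1-202 in Mdmx-Tg. Genes with few reads, such as Igsf9b, are limited by depth.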
